A study of Mus musculus with 8 samples.

Results

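The Dlk1-Meg3 domain on mouse chromosome 12 was followed through 5 transcripts in embryonic stem (ES) cells: the noncoding RNAs Meg3, Rian and Mirg, which are read from the maternal chromosome, and the coding genes Dlk1 and Rtl1, which are read from the paternal one. They were looked up by symbol, and 5 of the 23337 names in the table of gene counts belonged to the set. The table holds 8 libraries of polyadenylated RNA, from 4 ES cell clones numbered 6, 20, 30 and 36, each at passage 6 and again at passage 16. All groups were wild type, labelled 129S1, derived from mouse blastocysts carrying GFP at Rosa26, and grown in DMEM with the cytokine LIF. Passage and clone are the only factors that the labels vary. The clones also differed in transcripts of the Y chromosome, which were high in clones 20 and 30 and nearly absent in clones 6 and 36. The methods also name C57BL6 for cultured ES clones. The study asked whether gene expression changes while ES cells are expanded in culture, and for this domain the question is whether its imprinted transcripts shifted. Each clone gave 1 library per passage. Library depth was between 21394069 and 34295561 counted reads.

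An imprinted domain is one whose genes are used on the chromosome from one parent only. Here the choice is set by a control region between Dlk1 and Meg3 that carries DNA methylation on the paternal chromosome. Where that region is unmethylated, Meg3 and the noncoding RNAs downstream of it, which carry small nucleolar RNAs and microRNAs, are transcribed and Dlk1, Rtl1 and Dio3 are kept low, and where it is methylated the pattern is the opposite. Loss of the maternal noncoding RNAs is a known defect of some cultured pluripotent lines. Counts in these libraries sum both alleles, so the allele of origin and the methylation of the control region were not measured.

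The order on the plus strand of GRCm38 is Dlk1 at chr12:109452485-109463336, Meg3 at chr12:109540996-109571729, Rian at chr12:109603945-109661716 and Mirg at chr12:109734981-109749458, by RefSeq. Rtl1 lies on the minus strand at chr12:109564900-109604418, a span that overlaps both Meg3 and Rian. RefSeq places 103 genes from Dlk1 to Dio3, and the table listed 72 of them, among them 59 microRNA genes. The promoters of the 4 plus-strand members are shown because they mark annotated starts of the transcripts compared below. They run from 250 bases before to 50 bases after the annotated start, 5′ to 3′ on the plus strand (RefSeq, GRCm38.p6), with each CG dinucleotide in capitals, the site at which methylation can be placed.
Meg3 promoter: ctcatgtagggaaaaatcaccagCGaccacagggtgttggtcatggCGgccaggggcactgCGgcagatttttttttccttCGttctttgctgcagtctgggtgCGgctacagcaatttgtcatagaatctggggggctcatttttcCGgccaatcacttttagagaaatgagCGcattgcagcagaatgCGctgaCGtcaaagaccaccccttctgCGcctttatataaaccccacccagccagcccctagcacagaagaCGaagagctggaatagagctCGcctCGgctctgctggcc
Rian promoter: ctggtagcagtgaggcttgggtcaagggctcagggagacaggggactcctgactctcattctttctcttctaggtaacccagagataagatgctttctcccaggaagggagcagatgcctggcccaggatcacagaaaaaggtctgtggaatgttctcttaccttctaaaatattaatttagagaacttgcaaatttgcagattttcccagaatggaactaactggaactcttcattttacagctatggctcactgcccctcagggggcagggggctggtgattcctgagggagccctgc
Mirg promoter: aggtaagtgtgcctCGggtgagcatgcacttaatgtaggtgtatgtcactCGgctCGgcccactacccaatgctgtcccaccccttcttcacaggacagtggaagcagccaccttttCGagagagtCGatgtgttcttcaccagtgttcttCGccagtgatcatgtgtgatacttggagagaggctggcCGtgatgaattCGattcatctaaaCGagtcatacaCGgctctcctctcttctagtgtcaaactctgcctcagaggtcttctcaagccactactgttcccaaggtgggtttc
Dlk1 promoter: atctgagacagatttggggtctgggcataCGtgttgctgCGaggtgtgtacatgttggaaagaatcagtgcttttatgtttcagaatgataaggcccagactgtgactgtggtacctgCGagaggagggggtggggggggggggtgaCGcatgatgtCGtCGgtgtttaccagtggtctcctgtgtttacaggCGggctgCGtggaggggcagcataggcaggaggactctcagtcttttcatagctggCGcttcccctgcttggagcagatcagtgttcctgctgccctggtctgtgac
These windows lie at chr12:109540746-109541045 for Meg3, chr12:109603695-109603994 for Rian, chr12:109734731-109735030 for Mirg and chr12:109452573-109452872 for Dlk1, whose window is set on a start downstream of the RefSeq gene start. Meg3 has a second promoter in the same table, which is not shown. The Meg3 window held 13 CG dinucleotides, a number reached by 37.9% of the 32851 promoters in the table, whose median was 7. The Mirg window held 10 and the Dlk1 window 9. The Rian window held 0 in 300 bases. GENCODE starts Mirg at chr12:109729764, upstream of the Mirg window, which also holds the microRNA genes Mir668 and Mir485. Whether transcription begins at the starts shown was not tested. A search on both strands for TGACGTCA, the cyclic AMP response element, found it in the Meg3 window 57 bases before the start and in none of the other 3, and 1.79% of all promoters held it. TATAAA began 25 bases before the Meg3 start, was absent from the other 3 windows, and was held by 13.6% of promoters. Its reverse complement overlapped it in the Meg3 window. These matches describe the letters only.

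The tie between the 2 parental sides of the domain can be read in sequence. The large exon of Rtl1, at chr12:109589193-109595488 in GENCODE, has 6 microRNA genes on its opposite strand, which give 11 mature microRNAs. These are cut from a maternal noncoding RNA, match the Rtl1 transcript along their whole length, and several are known to guide its cleavage. One arm of each of 5 genes is printed, 5′ to 3′ from RefSeq, with the seed (bases 2 to 8) in capitals.
miR-431-5p: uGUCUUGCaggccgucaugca
miR-433-3p: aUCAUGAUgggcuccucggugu
miR-127-3p: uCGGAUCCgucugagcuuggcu
miR-434-3p: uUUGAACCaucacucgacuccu
miR-136-5p: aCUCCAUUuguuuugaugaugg
All 11 had different seeds. Their own levels could not be read here, since libraries of polyadenylated RNA do not hold mature microRNAs. Over the domain, 52 of the 55 microRNA rows that could be read had a mean under 1 normalized count, and the highest mean was 6.71 for Mir3072, which lies within Mirg. The other 4 microRNA rows were among names whose rows are out of register between libraries and were not read.

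Levels were first compared between the members. A normalized count is a number of reads divided by a size factor for the library, and dividing it by the exon length in kilobases (kb) makes genes comparable. Averaged over the 8 libraries, Rian stood highest with 488.3 normalized counts per kb of exon, followed by Meg3 with 304.2 and Mirg with 62.1. Dlk1 stood at 24.4 per kb and Rtl1 at 0.396. Rian was above Meg3 in each library, with a ratio of their normalized counts between 1.45 and 1.84. The order was the same when the longest transcript replaced all exons, with 1101 for Rian, 378.2 for Meg3, 118.4 for Mirg, 29.7 for Dlk1 and 0.396 for Rtl1. The maternal noncoding RNAs were thus all above the paternal coding genes on both length scales. Levels of this kind are sums over all cells, and in bulk RNA fewer cells with a transcript cannot be told apart from less of it per cell.

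Meg3, the first of the noncoding transcripts, is a long RNA made next to the control region. At passage 6 it had 6455 normalized counts in clone 6, 7163 in clone 20, 6398 in clone 30 and 2343 in clone 36. At passage 16 it had 6427, 7186, 5842 and 2208 in the same order of clones. Both libraries of clone 36 were low, and the other 6 libraries lay between 5842 and 7186.

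Rian, the host of a cluster of small nucleolar RNAs, had 9696 normalized counts in clone 6, 10629 in clone 20, 11272 in clone 30 and 3392 in clone 36 at passage 6. At passage 16 the values were 11815, 10776, 9821 and 3832. Clone 36 was again low at both passages, while clones 6, 20 and 30 changed their order between passages.

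Mirg, the host of the large microRNA cluster at the far end, had 496 normalized counts in clone 6, 433 in clone 20, 606 in clone 30 and 155 in clone 36 at passage 6. At passage 16 it had 602, 586, 550 and 192. The 2 libraries of clone 36 stood below all others here too.

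Dlk1 encodes a transmembrane protein related to Notch ligands that holds back adipocyte differentiation. It had 116 normalized counts in clone 6, 166 in clone 20, 188 in clone 30 and 72.3 in clone 36 at passage 6, and 112, 136, 216 and 98.4 at passage 16. Clone 36 was lowest and clone 30 highest at both passages, but the gap between clone 36 and clone 6 was small, 98.4 against 112 at passage 16.

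Rtl1 encodes a retrotransposon-derived protein needed in the placenta. It was at the edge of detection, with 1 to 4 reads in a library and 20 reads in all. Its normalized counts were 1.34, 1.80, 2.46 and 4.74 at passage 6 and 0.877, 2.87, 1.93 and 4.10 at passage 16, in clones 6, 20, 30 and 36. Clone 36 was the highest at both passages, the reverse of the other members. With 8 reads in clone 36 against 2 in clone 6, the ratio was 4.15 with an exact 95% counting interval of 0.828 to 40.1. Against clone 20 it was 1.89 (0.546 to 7.36) and against clone 30 it was 1.98 (0.571 to 7.69), so that no difference in Rtl1 was detectable at this depth. The intervals cover counting error only. Whether reads were counted by strand is not given in the sources used here, and where they were not, reads from the opposite strand of Rtl1 cannot be told apart from its own.

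**Figure D1:**
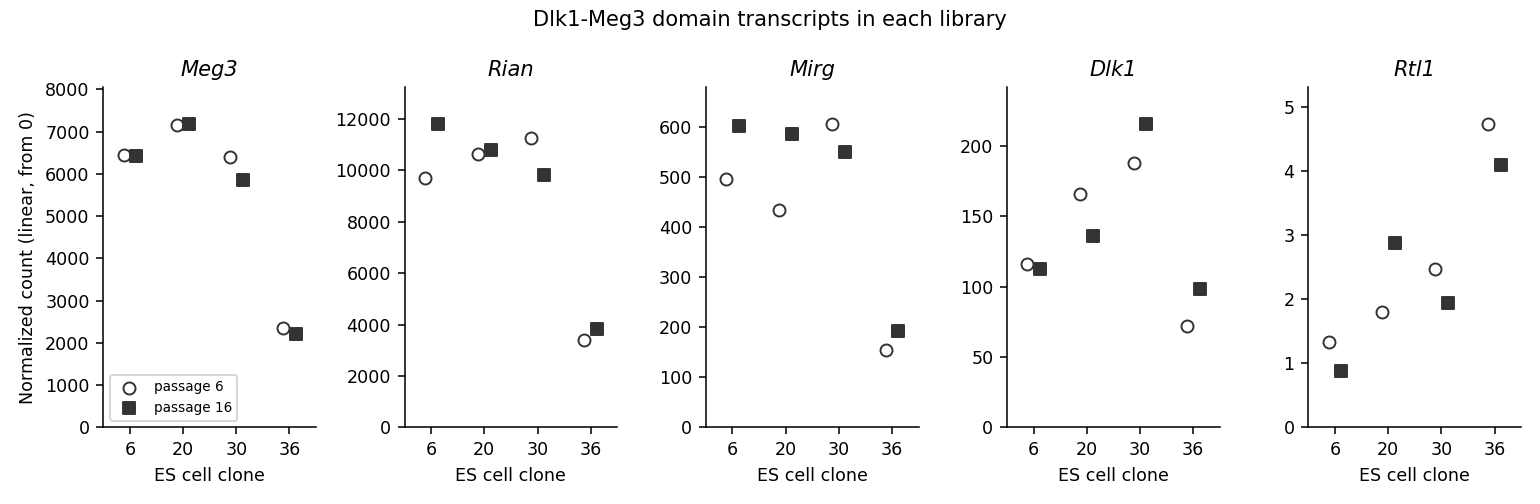
Normalized counts (linear axis from 0, one scale per gene) of the 5 transcripts in the 4 ES cell clones at passage 6 (open circles) and passage 16 (filled squares), 1 library per point. Meg3 lies between 2208 and 2343 in clone 36 and between 5842 and 7186 in the other clones, and Rtl1 stays under 5 in every library.

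Passage was compared first, 4 libraries against 4. No member passed the test between passage 6 and passage 16. Meg3 went from 5590 ± 2192 to 5416 ± 2208 normalized counts (SD, n = 4), a log2 fold change of -0.05 ± 0.48 (SE) with an adjusted p of 0.994 in limma. Rian went from 8747 ± 3628 to 9061 ± 3580, by 0.07 ± 0.49 on the log2 scale (limma adjusted p = 0.992). These SDs include the distance of clone 36 from the rest, which was present at both passages. Mirg went from 423 ± 192 to 482 ± 195, by 0.22 ± 0.52 (adjusted p = 0.964), and Dlk1 from 136 ± 51.8 to 140 ± 52.4, by 0.08 ± 0.35 (adjusted p = 0.986). Rtl1 fell under the minimum mean of 10 and was not in this fit, with 2.58 ± 1.51 at passage 6 and 2.44 ± 1.37 at passage 16. Two-sided exact permutation tests on the normalized counts gave p between 0.571 for Mirg and 0.943 for Dlk1 over the 5 members, where the smallest p that 4 against 4 can give is 0.0286.

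In that fit 1 of 14791 names passed an adjusted p of 0.05, which is 0.00676%, and 518 had an unadjusted p under 0.05. The 1 name, Sox18, is named here after its value was seen and lies in a group of rows that are out of register. With the clone as a block, 0 names passed in limma and the members' adjusted p lay between 0.726 and 0.906. DESeq2, which models counts, called 46 names (0.291%) without the block and 98 (0.714%) with it, and no member among them. The 4 libraries of one passage overlapped those of the other for each of the 5 members, and did not for 2.43% of names.

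Since each clone was measured at both passages, the change can be read within clones. Meg3 moved least, by a mean of -0.05 on the log2 scale with an SD of 0.06 over the 4 clones and a range from -0.13 to 0.00. Rian changed by 0.07 ± 0.21 and Mirg by 0.22 ± 0.25, each higher at passage 16 in 3 of 4 clones and lower in clone 30. Dlk1 was split, with 2 clones higher and 2 lower and a range from -0.29 in clone 20 to 0.44 in clone 36. In clone 36 itself Meg3 differed by -0.09 between passages, Rian by 0.18 and Mirg by 0.30, so its low levels were already there at passage 6.

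**Figure D2:**
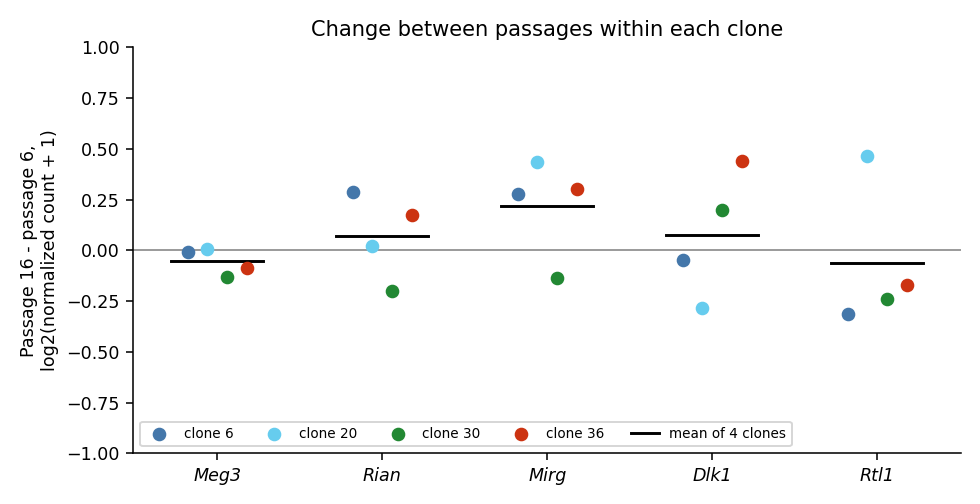
Difference between passage 16 and passage 6 in log2(normalized count + 1) for each clone (points) and the mean of the 4 clones (bars). Meg3 lies between -0.13 and 0.00, and the points of Rian, Mirg, Dlk1 and Rtl1 fall on both sides of 0.

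Clones were then compared, with both libraries of a clone giving the spread and passage as a term. Meg3 differed among clones, and clone 36 had between 31.7% and 37.2% of the level of each other clone. The range of its 4 clone means was 1.66 on the log2 scale, with an adjusted p of 0.00896 in limma's F test, which 20 of 14791 names, or 0.135%, passed. Rian had a range of 1.57 and an adjusted p of 0.0767, and Mirg a range of 1.74 and an adjusted p of 0.14. Clone 36 held between 33.6% and 34.2% of the Rian level of another clone and between 29.99% and 34.0% of the Mirg level. Dlk1 had a range of 1.25 and did not pass (adjusted p = 0.367).

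The same values gave smaller p-values once names with doubtful rows were left out of the fit. The table holds 5080 names in groups built on a shared stem, such as a symbol and the same symbol with a digit added, and in these groups rows are out of register between libraries. No member is among them. Over the other 12283 names tested, 62 passed limma's F test, or 0.505%, and Meg3 (adjusted p = 0.000858), Rian (0.00776) and Mirg (0.023) were among them, while Dlk1 was not (0.164). In this fit Meg3 had a range wider than 98.1% of names, Rian than 97.8%, Mirg than 98.4% and Dlk1 than 95.6%. With edgeR on the recovered reads, which called 15 names (0.101%), Meg3 passed (adjusted p = 0.0195) and Rian (0.12), Mirg (0.2) and Dlk1 (0.367) did not. DESeq2 called 1121 of 14486 names, 7.74%, and all 4 tested members, with an adjusted p of 0.00693 for Dlk1. Meg3 lost its call without the passage 6 library of clone 36 (limma adjusted p = 0.126) or its passage 16 library (0.13).

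Pairs of clones show where the range comes from. Meg3 was lower in clone 36 than in clone 6 by -1.50 on the log2 scale (95% interval -1.66 to -1.34, limma adjusted p = 0.0142), a contrast in which 0.027% of names passed. Against clone 20 the difference was -1.66 (-1.82 to -1.50, adjusted p = 0.00459), where 0.0947% passed. Against clone 30 it was -1.43 (-1.58 to -1.27, adjusted p = 0.00954), where 0.155% passed. The 3 pairs without clone 36 were far closer: 0.16 between clones 20 and 6, -0.08 between 30 and 6 and -0.23 between 30 and 20. Meg3 passed in none of them, where 0.101%, 0.0541% and 0.128% of names did.

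Rian differed by -1.57 between clones 36 and 6 (-1.89 to -1.25, adjusted p = 0.191), by -1.57 between 36 and 20 (-1.89 to -1.25, adjusted p = 0.0636) and by -1.54 between 36 and 30 (-1.87 to -1.22, limma adjusted p = 0.0447). Its other 3 pairs differed by 0.00, -0.02 and -0.02, with intervals that reached at most 0.35 to either side. Mirg differed by -1.66, -1.54 and -1.74 from clones 6, 20 and 30 with adjusted p of 0.336, 0.164 and 0.0685 in limma. Without the names out of register, all 3 pairs with clone 36 passed for Rian (adjusted p from 0.00491 to 0.0214), and for Mirg the pairs with clone 20 (0.0411) and clone 30 (0.00961) passed, and that with clone 6 did not (0.0645). The percentages of names passing these 3 contrasts were then 0.0163% against clone 6, 0.0896% against clone 20 and 0.896% against clone 30.

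Dlk1 was graded rather than split. Its clone means ran from 85.3 in clone 36 to 114 in clone 6, 151 in clone 20 and 202 in clone 30. Neighbours in this order did not differ beyond their spread, as the intervals were -1.004 to 0.14 for clone 36 against 6, -0.18 to 0.96 for 20 against 6 and -0.15 to 0.99 for 30 against 20. The widest pair, clone 36 against 30, differed by -1.25 (-1.82 to -0.68, limma adjusted p = 0.181). Clone 36 against 20 differed by -0.82 (-1.39 to -0.25, limma adjusted p = 0.974). Clone 30 against 6 differed by 0.81 (0.24 to 1.38, limma adjusted p = 0.368). These intervals, which are for single comparisons, lay clear of 0, but no pair passed.

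**Figure D3:**
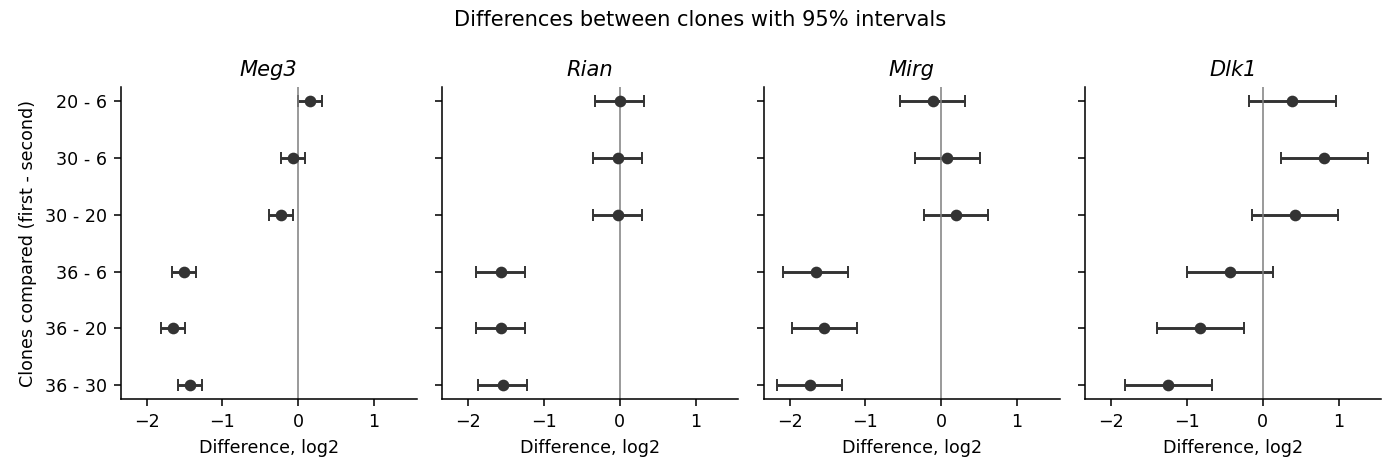
Differences between pairs of clones in log2(normalized count + 1), first clone minus second, with 95% intervals from limma over all names (2 libraries per clone). The 3 pairs with clone 36 lie between -1.43 and -1.74 for Meg3, Rian and Mirg and the 3 pairs without it lie near 0, while Dlk1 spreads from -1.25 to 0.81.

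The noncoding transcripts were low together in clone 36, in proportions like those of the other clones. Rian per Meg3 was 1.45 and 1.74 in clone 36 and between 1.48 and 1.84 elsewhere. Mirg was 6.62% and 8.68% of Meg3 in clone 36, within the 6.05% to 9.47% of the other libraries. The proportion of Dlk1 in clone 36 was above that of clones 6 and 20 and overlapped that of clone 30. It was 3.08% and 4.46% of Meg3 in clone 36, against 1.75% to 2.31% in clones 6 and 20 and 2.94% and 3.69% in clone 30.

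A pair of further rows from within the domain bear on the same strand. AF357359, a small nucleolar RNA listed at chr12:109650709-109650738 inside Rian, had 140, 145, 147 and 52.1 normalized counts at passage 6 and 143, 147, 130 and 48.2 at passage 16 in clones 6, 20, 30 and 36. It followed its host closely, at 1.21% to 1.54% of Rian in every library, and reads of the host cannot be told apart from its own. The row 6430411K18Rik at chr12:109591537-109592851, which is read opposite Rtl1, had 13.4, 26.1, 14.0 and 1.18 at passage 6 and 15.8, 10.5, 9.67 and 6.15 at passage 16. Clone 36 was lowest at both passages, with 7 reads against 28, 40 and 27 in clones 6, 20 and 30, which gave ratios of 0.259 (exact 95% counting interval 0.0957 to 0.608), 0.207 (0.0783 to 0.468) and 0.321 (0.118 to 0.755). These intervals cover counting error only and pool the 2 libraries of a clone, which held 1 and 6 reads in clone 36 and 29 and 11 in clone 20. In limma's F test, which uses the spread between libraries, 6430411K18Rik did not pass (adjusted p = 0.512). In the opposed pair, clone 36 thus had the fewest reads of 6430411K18Rik and the most of Rtl1, the latter within counting error of the other clones.

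Both libraries of clone 36 were below the 6 others for Meg3, Rian, Mirg and Dlk1, 4 of the 5 members. Over all 14791 names tested the same held for 409, or 2.77%. Clone 36 and the low direction were chosen after the members' values were seen, and this share is for that clone and direction only. The members lie next to each other and are not independent of one another.

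Names beyond the ends of the domain lay near 0 in the same contrasts. Within 2000 kb on either side of Meg3, 21 names outside Dlk1 to Dio3 were tested, and their median differences of clone 36 from clones 6, 20 and 30 were -0.09, 0.05 and -0.04. None of the 21 passed in any of the 3 contrasts, and the medians over all 374 names of chromosome 12 were -0.01, 0.03 and -0.02. Begain, the nearest gene tested before Dlk1, differed by -0.20, 0.13 and -0.34. At the far end Dio3, which encodes a thyroid hormone deiodinase and is also read mainly from the paternal chromosome, had 78.8, 177, 69.8 and 71.1 normalized counts at passage 6 and 22.8, 114, 82.2 and 73.8 at passage 16. Its highest clone was 20, and its adjusted p among clones was 0.502. Of the 19 flanking genes listed, 12 could be tested outside the doubtful groups and none passed for passage or clone, with log2 fold changes between passages from -0.52 for Dio3 to 0.11 for Evl, an actin regulator. Their median range among clones was 0.19, against 0.31 over all names.

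**Figure D4:**
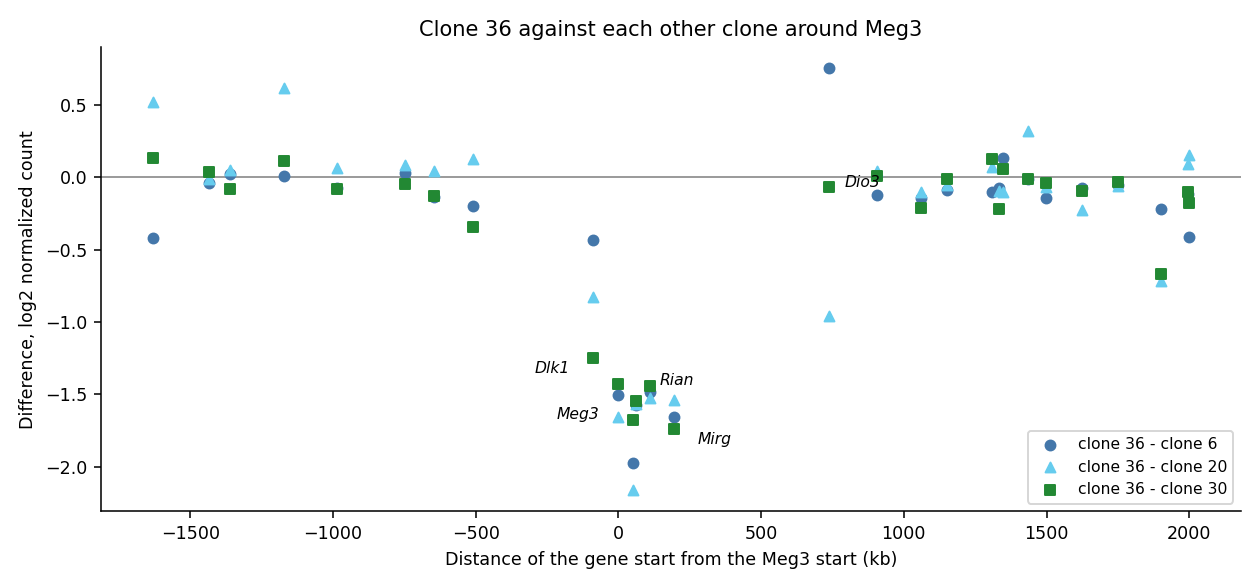
Difference of clone 36 from clones 6 (circles), 20 (triangles) and 30 (squares) in log2(normalized count + 1) for each name tested within 2000 kb of Meg3, by distance of gene starts. The noncoding transcripts lie between -1.43 and -2.16, Dlk1 lies between -0.43 and -1.25, Dio3 lies between -0.96 and 0.75, and the 21 names beyond the domain lie between -0.71 and 0.62.

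Genes that read or write imprints were listed next, such as DNA methyltransferases, TET enzymes and imprint-binding zinc finger proteins. Of 19, 17 could be tested, and 0 passed for passage and 0 for clone in limma. One of the 17 had an unadjusted p under 0.05 for passage, as did 391 of all 12283 names: Dnmt3b, a de novo methyltransferase, at -0.50 ± 0.18 (log2, SE; limma adjusted p = 0.947), the lowest of the list. Dppa3, which protects imprints in the early embryo, was the highest at 0.20 ± 0.18 (adjusted p = 0.947). Of the 17, 7 were higher and 10 lower at passage 16. Dnmt3a, Dnmt3b, Dnmt3l, Tet2 and Zfp445, named after their values were seen, were lower at passage 16 in each clone, though none of them passed in limma. Zfp445 went from 3490, 4448, 3367 and 4172 normalized counts to 2774, 3669, 2697 and 3455 in clones 6, 20, 30 and 36. No gene of the 17 was higher in each clone. The shares of all names that were lower or higher in each clone were not computed. Whether such a fall is more common in this list than elsewhere was therefore not tested. Calls of DESeq2 with the block were not read for this list. The median range of this list among clones was 0.32, near the 0.31 of all names. Zfp57 and Trim28, which keep imprints methylated, lie in the doubtful groups and have no values here.

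Other imprinted genes were read for comparison with the Dlk1-Meg3 domain. Of the imprinted genes of distal chromosome 7, 9 of 13 could be tested, with a median range among clones of 1.21, and 3 passed outside the doubtful groups, where 0.505% of all names did: H19 (adjusted p = 0.00556), a maternal noncoding RNA, Kcnq1ot1 (0.00776), a paternal noncoding RNA, and Cdkn1c (0.0294), a cell cycle inhibitor. Their lowest clones were 6, 30 and 36. Both libraries of clone 36 were below the 6 others for 3 of these 9 genes, Igf2, Ascl2 and Cdkn1c, named after their values were seen, and for 342 of the 12283 names. Between clones 36 and 30, where 0.896% of names passed, 4 of the 9 passed: H19 (-1.26), Cdkn1c (-1.21) and Igf2 (-1.74) were lower in clone 36 and Kcnq1ot1 (1.10) was higher, on the log2 scale. Against clones 6 and 20 none of the 9 passed. Of 29 imprinted genes elsewhere, 23 were tested with a median range of 0.49, and only Grb10, an adaptor that restrains insulin signalling, passed (range 1.99, adjusted p = 0.0265), beside the same 0.505% of names. Grb10 had 1535 and 1342 normalized counts in clone 36, the lowest at each passage. None of these 4 passed with all names in the fit, where the adjusted p lay between 0.0532 for H19 and 0.17 for Grb10. Between passages none of these tested genes passed in limma, with log2 fold changes from -0.68 for Grb10 to 0.54 for Mest, and on chromosome 7 from -0.53 for Phlda2 to 0.42 for H19.

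**Figure D5:**
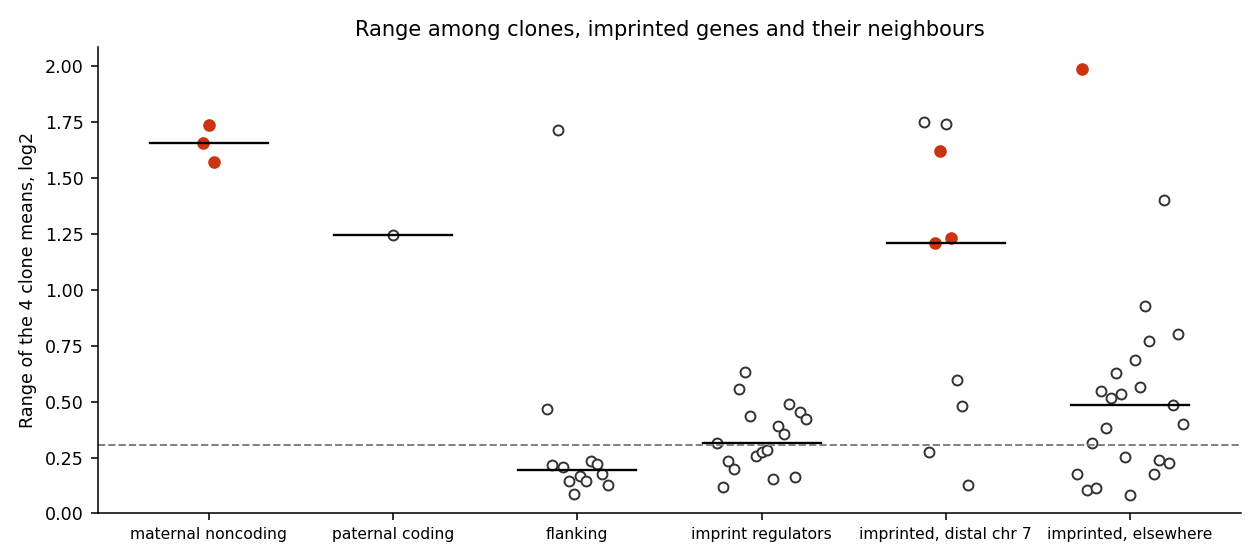
Range of the 4 clone means in log2(normalized count + 1) for each gene tested, by list. Red points passed limma's F test over names outside the doubtful groups, bars are list medians, and the dashed line is the median of all names, 0.31. The maternal noncoding transcripts lie between 1.57 and 1.74 and most flanking genes lie below the line.

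The markers of the cells were checked beside these differences. The 8 ES cell markers that could be read, among them Pou5f1 and Nanog, summed to between 96120 and 105200 normalized counts in the 8 libraries, with none at 0 and a median range among clones of 0.20. Between passages they ran from -0.18 for Utf1 to 0.28 for Klf4, and 0 of 8 passed. In limma 3 of the 8 had an unadjusted p under 0.05, as did 391 of all 12283 names. Of the 3, Klf4 and Nanog (0.27) were higher at passage 16 and Utf1 was lower. Fibroblasts also express Meg3 and Dlk1. The 12 fibroblast markers summed to 4393 and 5053 in clone 36, and between 4715 and 6618 in the other libraries, so clone 36 had low sums at both passages that overlapped those of clone 30. At most 1 of the 12 was at 0 in a library, and their fold changes between passages ran from -0.08 for Thy1 to 0.85 for Col6a3, with 0 of 9 passing. The 8 primitive endoderm markers summed to 36710 and 21820 in clone 36, 20530 and 11950 in clone 6, 16520 and 27500 in clone 20 and 9813 and 7786 in clone 30, at passages 6 and 16. None was at 0, none passed among clones, and between passages they ran from -0.45 for Sox7 to -0.05 for Dab2. The part of either cell type in the clone differences was not tested. Transcripts of the Y chromosome, chosen for this after their values were seen, also differed among clones, with Ddx3y at most 2.67 normalized counts in clone 6 and 9.48 in clone 36 and at least 1582 in clones 20 and 30. Their relation to the clone differences was not tested.

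The names most like Meg3 over the 8 libraries, by Pearson's r of log2(normalized count + 1), were AF357359 (r = 0.996), Rian (0.983) and Mirg (0.951), followed by Pomgnt1 (0.897) and P4htm (0.891). Pomgnt1 followed Meg3 over a much smaller range, 0.13 among clones. Dlk1 stood at r = 0.704 to Meg3, at rank 152. Those most like Dlk1 were Ascl2 (0.968), Cand1 (0.965), Wls (0.964), Car4 (0.961) and Pla2g4e (0.953), none of them in the domain, and Mirg came closest of the other members with 0.747. These values describe 8 libraries, of which each 2 share a clone.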

How the data were processed

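RNA was sequenced in 8 mouse ES cell libraries, 4 clones at passages 6 and 16. Per the labels and the methods, the authors purified polyadenylated RNA, made stranded libraries, aligned reads with TopHat2 2.0.10, Bowtie 1.0.0 and SAMtools 0.1.19 to GRCm38 and counted them with HTSeq 0.5.3p9. The deposited values are a signal, the counts divided by the DESeq2 size factor of each library. Dividing by the value of 1 read gave whole reads for 100% of values (tolerance 1e-06) and the totals above, which set the counting error.

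Log2(normalized count + 1) was fitted with limma 3.58.1 over 14791 names with a mean of at least 10: passage alone, and clone plus passage with an F test over clones. Adjusted p-values are Benjamini-Hochberg over all names in a fit, with 0.05 as threshold, two-sided. edgeR 4.0.16 and DESeq2 1.42.0 were run on recovered reads as alternatives. The limma fits were tested on simulated data, in which 200 of 14791 names were changed by 1 to 3 on the log2 scale. For passage 97% were recovered with 8 false calls, and for clones 92% with 17. Every simulated name had the same spread beyond counting error. The passage simulation held no differences between clones, and no rows were out of register. These percentages therefore do not give the power of the fits on the real libraries. In the groups of 5080 names that share a stem, rows are out of register between libraries, so genes among them have no values here. The labels give the clone, so same-numbered libraries pair by cell line; their deviations from the passage means correlated at r = 0.0956, 0.271, 0.701 and 0.433 for clones 6, 20, 30 and 36, and for clone 6 a library of another clone matched better (r = 0.281). Exon lengths came from GENCODE M21. Besides the 5 members, the genes named are those of each list past the threshold and at the ends of its fold changes, and the 5 names most like Meg3 and Dlk1. Others were named after their values were seen, where so marked. Members and lists were chosen with earlier results of these data known. Nothing says that a clone's 2 libraries are separate derivations, so p-values among clones measure the spread between 2 passages of a culture.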

Additional observations from a re-analysis of the deposited data

Results flagged for a closer look

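In 4 of the 10 groups of 4 libraries (5 members at 2 passages), 1 library stood apart from the other 3, its gap to the nearest taking more of the whole range on the log2 scale than Dixon's 95% critical value allows. All 4 were clone 36 as the lowest: Meg3 at passage 6 (0.899 of the range), Rian at passage 6 (0.875) and at passage 16 (0.836), and Mirg at passage 16 (0.922). Chance alone gives such a gap in about 5% of independent groups with normal values. Neighbouring transcripts of the same libraries are not independent groups, and both passages hold the same 4 clones. The 4 flags therefore repeat the clone 36 difference given above. The share of all names with such a gap was not computed. Meg3 at passage 16 (0.824) and Mirg at passage 6 (0.753) had clone 36 lowest and fell short.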

How the results depend on the processing

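The number of names past the threshold between passages, 1 in limma, was 0 outside the groups out of register (436 with an unadjusted p under 0.05), 0 with the replicate block of clone (884 names had an unadjusted p under 0.05), 46 in DESeq2, 98 in DESeq2 with the block, and 1 to 13 when 1 library was left out, 13 and 12 without clone 30 at passages 6 and 16, 4 each without clone 20 at either passage, 3 without clone 36 and 2 without clone 6 at passage 16. The block changed no other call. No member passed between passages under any alternative. Their small differences changed sign when single libraries were left out, with ranges of -0.43 to 0.33 for Meg3, -0.34 to 0.44 for Rian, -0.21 to 0.62 for Mirg, -0.19 to 0.26 for Dlk1 and -0.28 to 0.20 for Rtl1 (log2), the ends mostly reached by leaving out clone 36, which unbalances the passages. Among clones, 20 names passed, 62 outside the groups out of register, 1121 in DESeq2, and 16 to 165 with 1 library left out, 109 and 165 without clone 6 and 36 and 54 without clone 30 at passages 6 and 16. With 1 library left out, the range was 1.62 to 1.70 for Meg3, which kept its call in 6 of 8 fits, 1.499 to 1.72 for Rian, which passed in 3 of 8 (without either library of clone 6 or clone 30 at passage 16), 1.66 to 1.98 for Mirg and 1.00 to 1.49 for Dlk1, which passed in none. Rian and Mirg passed outside the groups out of register with ranges of 1.57 and 1.74, and Rian, Mirg and Dlk1 passed in DESeq2 with 1.57, 1.75 and 1.24. In each of these fits the lowest clone was 36 for all 4. The cause of the other changes was not tested. Other pseudocounts, filters and TMM scaling changed no call of a member.

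With 2 libraries per clone and 1 to 4 reads per library for Rtl1, the depth limits what can be said of that gene, and counts that sum both alleles do not show imprinting itself.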
